A study of Mus musculus with 8 samples.

Results

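The genes described here encode the enzymes that place, copy and remove DNA methylation: Dnmt1, Uhrf1, Dnmt3a, Dnmt3b, Dnmt3l, Tet1, Tet2, Tet3 and Tdg. They were taken by symbol from the expression tables, which hold 1 row for each of these 9 genes among 24849 genes. RNA was sequenced from mouse embryonic stem cells (mESCs) of the MPI-II line, a line from strain 129S2/SvPas, to ask how loss of PCGF5, a subunit of a variant Polycomb repressive complex, changes expression when mESCs turn into neural cells. The 8 samples were wild-type and Pcgf5-/- cells at day 0 and at day 6, with 2 biological replicates in each of the 4 conditions. Day 0 cells grew on feeder-coated plates with serum, LIF and the inhibitors CHIR99021 and PD0325901, and day 6 cells had been in N2B27, a serum-free medium that lets mESCs become neural progenitors. Pcgf5 was disrupted with a TALEN pair aimed at exon 2, followed by drug selection and picking of single colonies. How many clones stood behind the sequenced samples is not given in the sources used here, so a difference between genotypes cannot be told apart from a difference between clones.

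Methyl groups on cytosines of CpG dinucleotides are copied to the new strand after replication by DNMT1, which UHRF1 brings to hemimethylated sites. DNMT3A and DNMT3B methylate sites that carried no mark, and DNMT3L, which lacks catalytic activity, stimulates both. TET1, TET2 and TET3 oxidise methylcytosine, and TDG cuts out the most oxidised forms so that base excision repair restores an unmethylated cytosine. Mouse ES cells kept in both inhibitors are known for low genome methylation, and leaving this state is known to bring de novo methylation.

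Expression was given as FPKM (fragments scaled by exon length and by the number of mapped fragments), so levels can be set beside each other between genes. Differences are given on the log2(FPKM + 1) scale from a single limma fit of all 8 samples over 13214 genes, with a Benjamini-Hochberg adjusted p under 0.05 as the threshold. All 9 genes passed the filter on low values, a mean of over 1 FPKM in at least 1 condition. The summed FPKM was 363066 to 411496 per sample, and the files hold no fragment counts, so depth is unknown from them. The authors' own interval around each FPKM extended to each side by 2.84% to 31.6% of the value for these genes, with a median of 5.43% over 72 values. Across genes, which do not stand for replicates, the samples of a condition had a Pearson r of 0.972 to 0.974. Pcgf5 itself read 5.18 and 3.63 FPKM in wild-type samples against 1.28 and 1.84 FPKM in Pcgf5-/- samples at day 0, then 9.16 and 5.06 FPKM against 0.669 and 0.457 FPKM at day 6. Its samples lay apart on both days, and the difference passed the threshold at day 6 (log2 difference -2.33, SE 0.28, limma adjusted p = 0.00421) and not at day 0 (-1.07, SE 0.28, limma adjusted p = 0.105).

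The cell state of the samples was read from marker lists. Esrrb, a naive pluripotency gene, read 144 and 138 FPKM in wild-type cells at day 0, and Pax6, a neural progenitor gene, read 60.3 and 65.9 FPKM in them at day 6. The summed FPKM of 10 naive pluripotency genes at day 6 was 93.1 and 42.4 in wild-type replicates 1 and 2 and 299 and 243 in Pcgf5-/- replicates 1 and 2. The sum of 10 neural genes was 600 and 477 against 208 and 213. Thus the Pcgf5-/- samples of day 6 carried more naive and less neural transcript than the wild-type samples. Fibroblast genes such as Col1a1 mark the feeders, and the sum of 12 of them ran from 199 to 628 at day 0, highest in Pcgf5-/- replicate 2, and from 16.3 to 40.5 at day 6. The sum of 9 primitive endoderm genes was 204 in wild-type replicate 1 of day 6, 47.8 in Pcgf5-/- replicate 1 of day 6 and at most 37.1 in the other 6 samples. In bulk RNA, fewer cells of a type and less RNA per cell cannot be told apart, and the part of these mixtures in the results that follow was not tested.

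In wild-type cells at day 0 the 9 genes covered a wide range of levels. Uhrf1 led with a mean of 151 FPKM ± 1.58 (SD, n = 2), above 96.8% of the tested genes, followed by Dnmt1 with 53.6 ± 14.7 FPKM. Tet1, Dnmt3b and Dnmt3l came next with 34.8 ± 6.42, 32.4 ± 7.77 and 31.8 ± 0.607 FPKM, and the samples of these neighbours overlapped. Below them stood Tet2 with 17.6 ± 3.72, Dnmt3a with 7.84 ± 3.35, Tdg with 3.20 ± 0.222 and Tet3 with 0.781 ± 0.0646 FPKM, each apart from its neighbours. In wild-type cells at day 6 the order was Uhrf1, Dnmt1, Dnmt3b, Dnmt3a, Tet3, Dnmt3l, Tet1, Tdg and Tet2. There the samples of Dnmt1 overlapped with those of Dnmt3b, and Dnmt3a with Tet3. Those of Dnmt3l overlapped with Dnmt3a, Tet3, Tet1, Tdg and Tet2, and those of Tet1 also with Tet3 and Tdg. Uhrf1 stood above all others. Tet3 thus moved from the lowest mean of the 9 genes to a mean of 10.3 FPKM, above the means of Tet1 (7.31 FPKM) and Tet2 (3.21 FPKM).

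**Figure D1:**
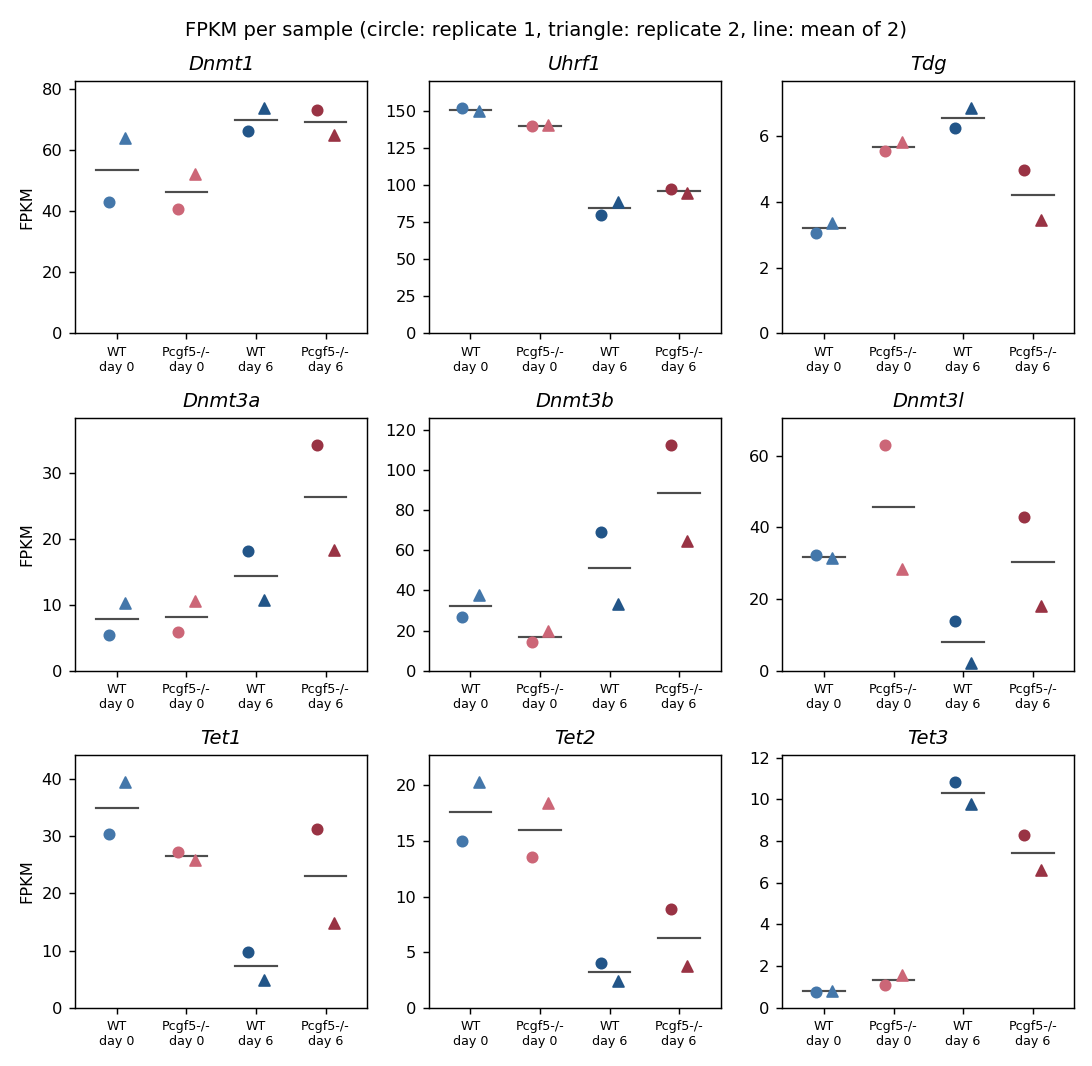
FPKM (vertical axis, linear from 0, each panel with its own range) of the 9 genes in the 8 samples, by condition (horizontal axis). Circles are replicate 1, triangles replicate 2 and lines the mean of 2. At day 6, replicate 1 lies above replicate 2 in both genotypes for Dnmt3a, Dnmt3b, Dnmt3l, Tet1, Tet2 and Tet3.

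More of these genes passed the threshold over the days than between the genotypes. Between day 0 and day 6 in wild-type cells 6 of the 9 genes passed the threshold, against 50.5% of all tested genes. Tet3 and Tdg were higher at day 6, 2 of 9 against 34.2%, and Uhrf1, Dnmt3l, Tet1 and Tet2 lower, 4 of 9 against 16.2%. In Pcgf5-/- cells 5 of 9 passed, against 32.3% of all tested genes. Dnmt3a, Dnmt3b and Tet3 were higher, 3 of 9 against 21.9%, and Uhrf1 and Tet2 lower, 2 of 9 against 10.4%. Between the genotypes at day 6 only Tet1 passed and was higher in Pcgf5-/- cells, 1 of 9 against 16.6% in either direction, 9.57% higher and 7.05% lower. The share of the 9 genes called at day 6 was thus no larger than that of all tested genes. This holds for the fit without a replicate block, and results with such a block are given at the end. At day 0 none of the 9 passed the limma test, against 0.333% of all tested genes (0.288% higher and 0.0454% lower), while 2 of the 9, Dnmt3b and Tdg, had an unadjusted p under 0.05, as had 17.4% of all tested genes.

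The samples of the genotypes did not overlap for 5 of the 9 genes at day 0, against 47.9% of all tested genes. Tet3 and Tdg were higher in Pcgf5-/- cells, against 34.6% of all tested genes, and Dnmt3b, Uhrf1 and Tet1 lower, against 13.3%. At day 6 they did not overlap for 6 of 9, against 62.2%: Dnmt3a, Dnmt3l, Uhrf1 and Tet1 were higher, against 33.4%, and Tet3 and Tdg lower, against 28.8%. Over the days the samples did not overlap for 8 of 9 in wild-type cells, 4 higher and 4 lower, against 77.6% of all tested genes (49.5% higher and 28.1% lower). In Pcgf5-/- cells this held for 7 of 9, 4 higher and 3 lower, against 68.4% (43.3% higher and 25.1% lower). The median log2 difference of the 9 genes was -0.11 between genotypes at day 0 and 0.73 at day 6, beside 0.11 and 0.02 over all tested genes. Over the days it was 0.40 in wild-type cells and -0.29 in Pcgf5-/- cells, beside 0.22 and 0.13.

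Scaling bears on the direction of small differences. Of all tested genes in wild-type cells 4522 were called higher and 2146 lower at day 6, and these counts became 3181 and 3020 with quantile normalization and 2745 and 4176 with median centring, where the median over all tested genes went from 0.22 to 0.0050 and -0.15. In Pcgf5-/- cells 2898 higher and 1373 lower calls became 1961 and 1734, or 1960 and 2117. Between genotypes at day 0 there were 38 higher and 6 lower calls, and 0 and 3 or 0 and 2 under these scalings. In the test of the change of the genotype effect between the days, 177 higher and 231 lower calls became 307 and 225, or 339 and 145.

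**Figure D2:**
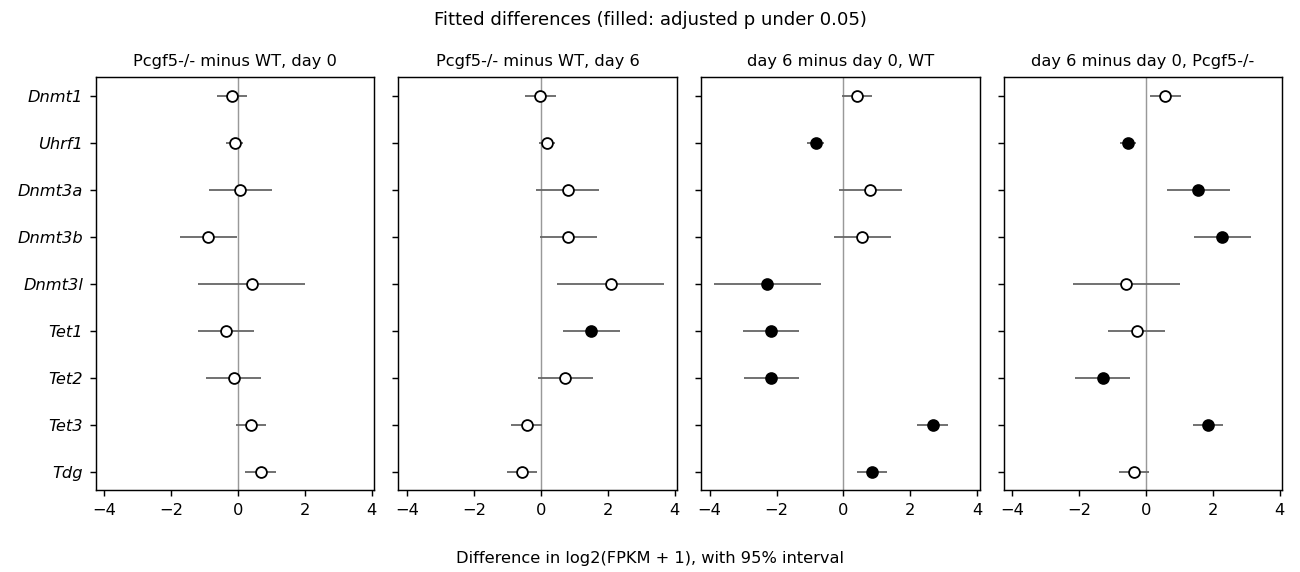
Difference in log2(FPKM + 1) (horizontal axis) of each gene (vertical axis) in 4 comparisons, with 95% intervals from the limma fit. Filled points passed an adjusted p under 0.05: none at day 0, Tet1 at day 6, 6 genes over the days in wild-type and 5 in Pcgf5-/- cells.

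Of the maintenance pair, Uhrf1 fell over the 6 days in both genotypes and Dnmt1 did not pass the threshold in any comparison. Uhrf1, which reads hemimethylated CpG and recruits DNMT1, lies on chromosome 17 of build mm9 from 56442760 to 56462909. It read 152 and 150 FPKM in wild-type samples against 140 and 141 FPKM in Pcgf5-/- samples at day 0, and 79.9 and 89.1 FPKM against 97.5 and 95.2 FPKM at day 6. The replicates were close, and the genotypes did not overlap on either day, wild-type being higher at day 0 and lower at day 6. The fall was 1.79-fold in mean FPKM in wild-type cells (log2 difference -0.83, SE 0.11, limma adjusted p = 0.000429) and 1.46-fold in Pcgf5-/- cells (-0.54, SE 0.11, limma adjusted p = 0.00716). Both falls passed under each alternative tried. The genotype differences were small, -0.11 at day 0 and 0.19 at day 6 (SE 0.11 for each), with limma adjusted p of 0.668 and 0.260.

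Dnmt1, the maintenance methyltransferase, lies on chromosome 9 from 20711650 to 20764332. It read 43.2 and 64.0 FPKM in wild-type samples against 40.8 and 52.2 FPKM in Pcgf5-/- samples at day 0, then 66.2 and 73.9 FPKM against 73.3 and 65.1 FPKM at day 6. The genotypes overlapped on both days, and all day 6 samples were higher than all day 0 samples. The difference over the days was 0.40 in wild-type and 0.57 in Pcgf5-/- cells (SE 0.20 for each, limma adjusted p = 0.125 and 0.0597). The difference passed in wild-type cells without replicate 2 of day 0 (0.68, limma adjusted p = 0.0267), and in Pcgf5-/- cells without either wild-type sample of day 0 (limma adjusted p = 0.0306 each time) and in a fit of the Pcgf5-/- samples alone (0.0381). Between genotypes at day 6 the log2 difference was -0.02 with a 95% interval from -0.48 to 0.44.

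The de novo enzymes Dnmt3a and Dnmt3b rose over the 6 days in Pcgf5-/- cells. Dnmt3b, the isoenzyme known for a peak in the early epiblast, lies on chromosome 2 from 153475185 to 153513466. It read 26.9 and 37.9 FPKM in wild-type samples against 14.4 and 19.5 FPKM in Pcgf5-/- samples at day 0, and 69.1 and 33.0 FPKM against 112 and 64.8 FPKM at day 6. At day 0 both Pcgf5-/- samples were below both wild-type samples. At day 6 the genotypes overlapped, with replicate 1 the higher in each. The mean rose 5.22-fold in Pcgf5-/- cells (log2 difference 2.28, SE 0.37, limma adjusted p = 0.00328) and was 1.57-fold higher in wild-type cells (0.57, SE 0.37, limma adjusted p = 0.235). The Pcgf5-/- rise passed under each alternative tried, and the wild-type difference passed without replicate 2 of day 6 (1.09, limma adjusted p = 0.0492). Between genotypes Dnmt3b differed by -0.89 at day 0 (SE 0.37, limma adjusted p = 0.271) and by 0.82 at day 6 (SE 0.37, limma adjusted p = 0.169). The difference between these 2 genotype effects was 1.71 (SE 0.53), with a limma adjusted p of 0.108. Genes of the primed epiblast also moved over the days in Pcgf5-/- cells, where 6 of 7 rose with a median of 2.83. In wild-type cells 4 of these 7 genes rose, with a median of 1.88. Over all tested genes 21.9% rose in Pcgf5-/- and 34.2% in wild-type cells, with medians of 0.13 and 0.22. Of the primed epiblast genes, Fgf5 read 3.33 and 0.525 FPKM in wild-type samples of day 6 against 8.19 and 2.15 FPKM in Pcgf5-/- samples of day 6. Otx2 read 11.9 and 7.03 FPKM against 31.9 and 20.1 FPKM, and neither passed between the genotypes (limma adjusted p = 0.226 and 0.0603). Other genes of this list went the other way. Sox3 read 73.3 and 82.1 FPKM in wild-type samples of day 6 against 39.6 and 37.1 FPKM in Pcgf5-/- samples. For Cdh2 the values were 84.5 and 97.5 FPKM against 36.8 and 34.6 FPKM. Of the 7 genes, 1 was called higher and 2 lower in Pcgf5-/- cells at day 6, against 9.57% and 7.05% of all tested genes. Their sum was 206 and 213 FPKM in wild-type samples against 185 and 132 FPKM. Sox3 and Cdh2, with the highest values of the list in wild-type samples, weigh most in the wild-type sum. Lef1 read 9.25 and 5.95 FPKM against 32.5 and 15.4 FPKM, and Pou3f1 11.1 and 7.89 FPKM against 28.3 and 12.2 FPKM. Fst read 12.2 and 11.6 FPKM against 7.59 and 10.8 FPKM. The sum thus does not give the direction of the whole list. The part of primed epiblast cells in the Dnmt3a and Dnmt3b values was not tested.

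Dnmt3a lies on chromosome 12 from 3806980 to 3914443. It read 5.47 and 10.2 FPKM in wild-type samples against 5.80 and 10.5 FPKM in Pcgf5-/- samples at day 0, and 18.1 and 10.6 FPKM against 34.2 and 18.3 FPKM at day 6. The genotypes overlapped at day 0, and at day 6 both Pcgf5-/- samples stood above both wild-type samples, the nearest pair by a narrow margin. The mean rose 3.22-fold over the days in Pcgf5-/- cells (log2 difference 1.56, SE 0.41, limma adjusted p = 0.0220) and was 1.83-fold higher in wild-type cells (0.81, SE 0.41, limma adjusted p = 0.133). The Pcgf5-/- call was lost without replicate 1 of day 0 (1.18, limma adjusted p = 0.125), without replicate 1 of day 6 (1.13, limma adjusted p = 0.129) and with no minimum FPKM (0.0657). At day 6 the genotypes differed by 0.81 (95% interval -0.13 to 1.75, limma adjusted p = 0.212). The Dnmt3b level at day 0 was 4.32 ± 0.856 (SD, n = 2) times that of Dnmt3a in wild-type cells, and 2.17 ± 0.443 times in Pcgf5-/- cells. At day 6 it was 3.46 ± 0.502 and 3.41 ± 0.173 times, so the low ratio was seen in the Pcgf5-/- samples of day 0 and no others.

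Dnmt3l, the cofactor of DNMT3A and DNMT3B known for its part in germ cells, varied most between replicates. It lies on chromosome 10 from 77505032 to 77526367. It read 32.2 and 31.3 FPKM in wild-type samples against 63.0 and 28.4 FPKM in Pcgf5-/- samples at day 0, and 13.7 and 2.1 FPKM against 42.9 and 17.9 FPKM at day 6. Both wild-type samples of day 6 were lower than the other 6 samples, and the Pcgf5-/- samples of day 6 fell in the day 0 range or below it. The mean fell 4.01-fold over the days in wild-type cells (log2 difference -2.28, SE 0.70, limma adjusted p = 0.0257). That call was lost without replicate 1 of day 0 (limma adjusted p = 0.0943), replicate 2 of day 0 (0.0888) or replicate 2 of day 6 (-1.15, limma adjusted p = 0.145), and with no minimum FPKM (0.0776). The Pcgf5-/- difference was -0.59 with a 95% interval from -2.19 to 1.01. At day 6 the Pcgf5-/- mean was 3.84 times the wild-type mean (log2 difference 2.09, SE 0.70, limma adjusted p = 0.0757), and without wild-type replicate 1 the difference was 3.22 (limma adjusted p = 0.0175). The first 1324 bases of the Dnmt3l locus are shared with the neighbouring gene Aire, which read 0.0982 to 1.62 FPKM. The sum of Dnmt3a and Dnmt3b exceeded Dnmt3l in every day 6 sample, where Dnmt3l was 0.103 ± 0.0775 (SD, n = 2) of that sum in wild-type and 0.254 ± 0.0542 in Pcgf5-/- cells.

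For Dnmt3a, Dnmt3b, Dnmt3l, Tet1, Tet2 and Tet3, replicate 1 of day 6 was the higher of the 2 in both genotypes. How many of all tested genes had this order was not counted. The naive pluripotency sum was also higher in replicate 1 than in replicate 2 of each genotype, 93.1 against 42.4 and 299 against 243, and so was the primitive endoderm sum, 204 against 37.1 and 47.8 against 20.3. Whether these sums bear on the enzyme genes named here was not tested.

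The 3 TET genes took separate courses, and in wild-type cells Tet1 and Tet2 fell while Tet3 rose. Tet1, the main TET gene of ES cells, lies on chromosome 10 from 62267318 to 62342762. It read 30.3 and 39.4 FPKM in wild-type samples against 27.2 and 25.9 FPKM in Pcgf5-/- samples at day 0, and 9.79 and 4.83 FPKM against 31.2 and 14.8 FPKM at day 6. Both wild-type samples of day 6 were below the other 6, and Pcgf5-/- replicate 1 of day 6 reached the day 0 range. The mean fell 4.77-fold in wild-type cells (log2 difference -2.16, SE 0.37, limma adjusted p = 0.00173), which passed under each alternative tried. The days overlapped in Pcgf5-/- cells, with a difference of -0.29 and a 95% interval from -1.13 to 0.56. At day 6 the Pcgf5-/- mean was 3.15 times the wild-type mean (log2 difference 1.51, SE 0.37, limma adjusted p = 0.0291). This call between the genotypes was lost without wild-type replicate 2 of day 6 (1.07, limma adjusted p = 0.159) and without Pcgf5-/- replicate 1 of day 6 (1.00, limma adjusted p = 0.149). It was also lost with no minimum FPKM (limma adjusted p = 0.0807) and in a fit of the day 6 samples alone (0.0531), and its direction held throughout. At day 0 Tet1 differed by -0.37 (SE 0.37, limma adjusted p = 0.663). The change of the genotype effect from day 0 to day 6 was 1.88 (SE 0.52, limma adjusted p = 0.0868), not past the threshold.

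Tet2, which is also expressed in ES cells and lacks the DNA-binding CXXC domain of TET1 and TET3, lies on chromosome 3 from 133126641 to 133207354. It read 15.0 and 20.3 FPKM in wild-type samples against 13.6 and 18.5 FPKM in Pcgf5-/- samples at day 0, and 4.04 and 2.38 FPKM against 8.87 and 3.76 FPKM at day 6. The genotypes overlapped on both days, and every day 6 sample was below every day 0 sample. The mean fell 5.50-fold in wild-type cells (log2 difference -2.16, SE 0.36, limma adjusted p = 0.00157) and 2.54-fold in Pcgf5-/- cells (-1.30, SE 0.36, limma adjusted p = 0.0267). The wild-type fall passed under each alternative tried. The Pcgf5-/- call was lost without replicate 1 of day 0 (-1.5, limma adjusted p = 0.0558), replicate 2 of day 0 (-1.09, 0.124) or replicate 2 of day 6 (-0.77, 0.140), and with no minimum FPKM (0.0718). At day 6 the genotypes differed by 0.73 (95% interval -0.09 to 1.56, limma adjusted p = 0.199).

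Tet3, the TET gene known from the oocyte and from neural cells, lies on chromosome 6 from 83312368 to 83391672. It read 0.736 and 0.827 FPKM in wild-type samples against 1.09 and 1.58 FPKM in Pcgf5-/- samples at day 0, and 10.8 and 9.77 FPKM against 8.28 and 6.6 FPKM at day 6. Pcgf5-/- samples were above wild-type samples at day 0 and below them at day 6. The mean rose 13.2-fold over the days in wild-type cells (log2 difference 2.66, SE 0.20, limma adjusted p = 3.34e-05) and 5.57-fold in Pcgf5-/- cells (1.85, SE 0.20, limma adjusted p = 0.000542), and both rises passed under each alternative tried. Between genotypes Tet3 differed by 0.38 at day 0 and -0.43 at day 6 (SE 0.20 for each, limma adjusted p = 0.366 and 0.178). Chromosome 6 as a whole was higher in Pcgf5-/- cells: its other 642 tested genes had a median log2 difference of 0.41 at day 0 and 0.37 at day 6. Set against that median, Tet3 differed by -0.03 at day 0 and -0.79 at day 6. The part of the chromosome-wide shift in the Tet3 values was not tested. The corresponding medians for the chromosomes of the other 8 genes lay between 0.05 and 0.09 at day 0.

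The summed FPKM of the 3 TET genes was 53.3 ± 10.2 (SD, n = 2) at day 0 in wild-type cells against 43.9 ± 2.85 in Pcgf5-/- cells, and 20.8 ± 5.42 and 36.8 ± 16.4 at day 6. Tet1 made up 65.5% ± 0.488 of it at day 0 in wild-type cells against 60.7% ± 6.08 in Pcgf5-/- cells. At day 6 its share was 34.1% ± 7.97 in wild-type cells, and 61.7% ± 4.01 in Pcgf5-/- cells, close to that of day 0. The Tet3 share went from 1.48% ± 0.163 to 50.7% ± 9.64 in wild-type cells and from 3.02% ± 0.601 to 21.7% ± 6.41 in Pcgf5-/- cells. The single day 6 samples had Tet3 shares of 43.9% and 57.5% in wild-type and 17.1% and 26.2% in Pcgf5-/- cells, so the genotypes did not overlap. With 2 samples a group an exact permutation test of these shares cannot reach 0.05, and none was run.

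**Figure D3:**
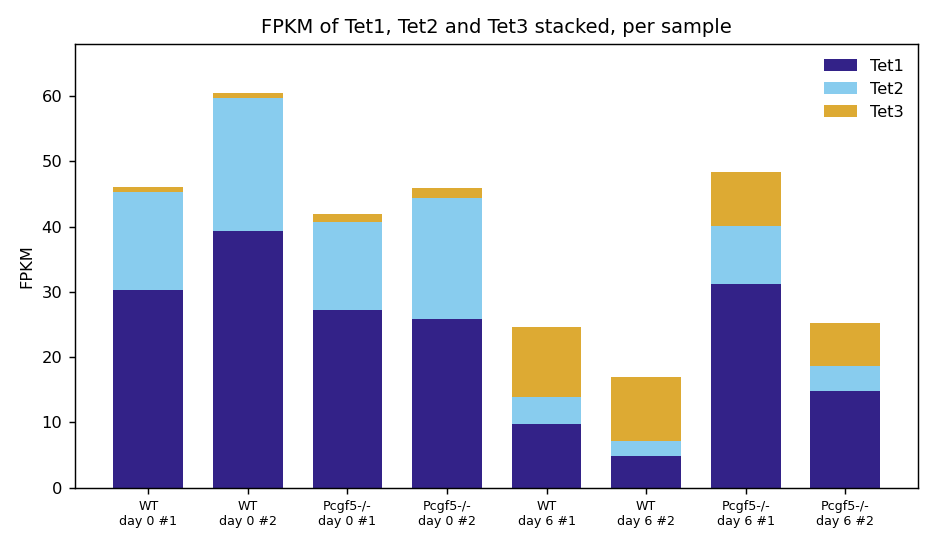
FPKM (vertical axis, from 0) of Tet1, Tet2 and Tet3 stacked for each of the 8 samples (horizontal axis, # gives the replicate number). Tet3 makes up the largest segment in both wild-type samples of day 6, with 43.9% and 57.5%, and Tet1 in both Pcgf5-/- samples of day 6.

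Tdg, the thymine DNA glycosylase that removes oxidised methylcytosine, read 3.05 and 3.36 FPKM in wild-type samples against 5.53 and 5.83 FPKM in Pcgf5-/- samples at day 0, and 6.24 and 6.85 FPKM against 4.97 and 3.45 FPKM at day 6. Pcgf5-/- samples were the higher at day 0 and the lower at day 6, with no overlap on either day. The mean at day 6 was 2.04 times that at day 0 in wild-type cells (log2 difference 0.84, SE 0.20, limma adjusted p = 0.00775). That call was lost without wild-type replicate 2 of day 6 (0.79, limma adjusted p = 0.0559) and with quantile normalization (0.37, limma adjusted p = 0.152) or median centring (0.48, limma adjusted p = 0.0648). The genotypes differed by 0.67 at day 0 (SE 0.20, limma adjusted p = 0.132) and by -0.55 at day 6 (SE 0.20, limma adjusted p = 0.0908). The change between these effects was -1.22 (SE 0.28, limma adjusted p = 0.0551), just outside the threshold.

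The Tdg value is uncertain, since a second row of the files lies on the same locus. Tdg spans chromosome 10 from 82092583 to 82113239, and the row named Gm9855 spans 82092587 to 82113022, a shared length of 20436 bp. Gm9855 read 33.6 and 28.8 FPKM in wild-type samples against 38.6 and 42.9 FPKM in Pcgf5-/- samples at day 0, and 53.8 and 47.2 FPKM against 46.4 and 47.2 FPKM at day 6. Tdg thus took 6.80% to 12.7% of the sum of both rows, and a fragment from this locus could have been assigned to either. The annotation GENCODE M1, of the same build, places Gm9855 elsewhere, as a pseudogene on the minus strand of chromosome 10 from 41773919 to 41775160. Over 1242 aligned bases with no gap, that copy and the Tdg coding sequence differed at 9 positions, an identity of 99.3%. The 90-base stretch with the most differences, 4, is printed from both to show how close they are, with the differing bases in capitals. It covers bases 1084 to 1173 of the coding sequence and chromosome 10 from 41774012 to 41774101 (mm9, minus strand).
Tdg coding sequence: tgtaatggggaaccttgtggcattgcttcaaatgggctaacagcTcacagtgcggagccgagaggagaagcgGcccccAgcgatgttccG
Gm9855 copy: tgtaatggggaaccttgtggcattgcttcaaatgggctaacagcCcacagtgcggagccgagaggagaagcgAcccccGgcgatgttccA
When both rows were summed before the fit, a step chosen after the values were seen, the rise over the days in wild-type cells was 0.71 (SE 0.13, limma adjusted p = 0.00208). The genotype difference of the sum was 0.42 at day 0 (limma adjusted p = 0.136) and -0.15 at day 6 (limma adjusted p = 0.433). In Pcgf5-/- cells the difference over the days turned from -0.37 for Tdg alone to 0.14 for the sum, and neither passed. With quantile normalization the Tdg difference in Pcgf5-/- cells was -0.65 and passed (limma adjusted p = 0.0407). The wild-type rise was seen in the Tdg row and in the sum, but Gm9855 made up most of the sum. The Gm9855 row alone rose by 0.68 (SE 0.13, limma adjusted p = 0.00355), so the sum is no separate view of Tdg. The Gm9855 values carried the quantification status LOWDATA in all 8 samples, where those of Tdg carried OK. In the sum the day 6 genotype difference shrank.

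**Figure D4:**
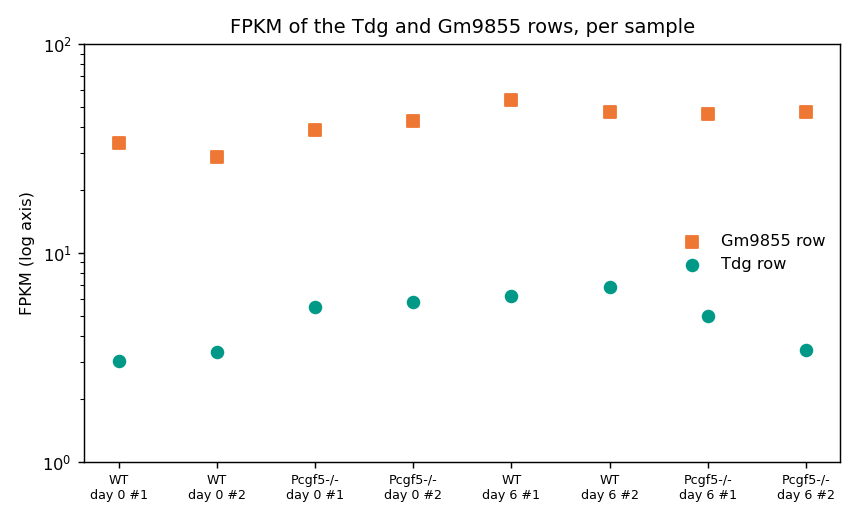
FPKM (vertical axis, log scale) of the Tdg row and of the Gm9855 row at the same locus in the 8 samples (horizontal axis, # gives the replicate number). Gm9855 lies between 28.8 and 53.8 FPKM and Tdg between 3.05 and 6.85 FPKM.

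No member passed the test of whether the genotype effect changed between the days, against 3.09% of all tested genes, while 4 of the 9 (Dnmt3b, Tet1, Tet3 and Tdg) had an unadjusted limma p under 0.05, as had 23.2% of all tested genes. For 4 genes the genotypes did not overlap on either day and the direction turned. Pcgf5-/- samples were lower at day 0 and higher at day 6 for Uhrf1 and Tet1, and higher at day 0 and lower at day 6 for Tet3 and Tdg. Of all tested genes 11.9% had such a turn. Set against the median of chromosome 6, Tet3 differed by -0.03 at day 0 and -0.79 at day 6, which is no turn. The Tdg values carry the uncertainty of the locus shared with Gm9855.

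The 9 genes differ in the CpG content of their promoters, the sequence their own products act on. RefSeq windows of 300 bases (build GRCm38.p6, 250 before and 50 after a start) matched all 9 genes, with 16 windows in all. Over 32851 such windows of the mouse genome the median was 7 CpG, with quartiles at 3 and 20. The single Tet2 window held 57 CpG, more than 99.8% of all windows, and those of Dnmt3b, Tdg, Tet3 and Tet1 held 30, 26, 22 and 17. The 3 windows of Dnmt3l, from the most upstream start to the most downstream, held 6, 4 and 3 CpG, all below the median. The 3 Dnmt1 windows ranged from 2 to 33 CpG, those of Dnmt3a from 18 to 47, and the 2 of Uhrf1 held 12 and 33. Methylation itself was not measured in these samples.

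The genes around the pathway were taken as 7 lists. Among genes which protect DNA from methylation or act with TET proteins, 4 of 14 tested were higher in Pcgf5-/- than in wild-type cells at day 6 and 1 was lower, against 9.57% and 7.05% of all tested genes, with a median of -0.01 beside 0.02 over all tested genes. Dppa3, which keeps UHRF1 out of the nucleus in oocytes, read 18.7 and 7.78 FPKM in wild-type samples against 63.2 and 86.3 FPKM in Pcgf5-/- samples at day 6 (log2 difference 2.51, SE 0.43, limma adjusted p = 0.0104). Prdm14, which represses Dnmt3b in naive ES cells, read 1.31 and 0.843 FPKM against 7.72 and 5.93 FPKM (1.91, SE 0.32, limma adjusted p = 0.00932). Nanog, a pluripotency factor that binds TET1, read 43.0 and 22.2 FPKM against 144 and 139 FPKM (2.16, SE 0.26, limma adjusted p = 0.00421), and Gadd45a was higher by 1.15 (SE 0.20, limma adjusted p = 0.0104). Dppa3, Nanog and Gadd45a lie on chromosome 6, where the 642 tested genes other than Tet3 had a median log2 difference of 0.37 at day 6. The part of that chromosome-wide shift in their values was not tested. The gene that was lower than in wild-type cells was Cxxc4, whose protein IDAX binds TET2 and lowers its level: it read 4.53 and 5.26 FPKM in wild-type samples against 1.47 and 1.5 FPKM in Pcgf5-/- samples (-1.24, SE 0.17, limma adjusted p = 0.00564). Cxxc4 was at or under 0.0574 FPKM in all day 0 samples and rose over the days in both genotypes, by 2.54 in wild-type and 1.27 in Pcgf5-/- cells (limma adjusted p = 2.02e-05 and 0.00137). Ogt, which modifies TET partners with a sugar, read 39.0 and 36.6 FPKM against 28.1 and 27.4 FPKM and did not pass (-0.43, limma adjusted p = 0.0669). Dppa3, Prdm14 and Nanog are themselves genes of naive pluripotency, and at day 6 they were higher in the genotype whose naive marker sum was also higher. Dppa3 did not follow that sum over the days. In Pcgf5-/- cells its mean went from 11.6 to 74.8 FPKM, while the mean sum went from 1019 to 271. In wild-type cells its mean was 13.9 FPKM at day 0 and 13.3 FPKM at day 6, where the mean sums were 1021 and 67.8. Over the days Nanog fell in both genotypes, from a mean of 363 to 141 FPKM in Pcgf5-/- cells. The nearest the Cxxc4 and Nanog calls came to the threshold on leaving out 1 sample was a limma adjusted p of 0.0425 and 0.0406, and that of Cxxc4 was lost with a pseudocount of 0.01 (-1.71, SE 0.88, limma adjusted p = 0.233). The Prdm14 call was lost without Pcgf5-/- replicate 1 (limma adjusted p = 0.0656) or wild-type replicate 2 of day 6 (0.0588), and that of Gadd45a without wild-type replicate 2 (0.0657) or Pcgf5-/- replicate 2 of day 6 (0.0553). Dppa3 was lost without wild-type replicate 2, Pcgf5-/- replicate 1 or Pcgf5-/- replicate 2 of day 6 (limma adjusted p = 0.0518 to 0.0553).

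Of the germline genes known to be silenced by promoter methylation, 3 of 10 tested were higher in Pcgf5-/- than in wild-type cells at day 6 and none was lower, against 9.57% and 7.05% of all tested genes. All 10 log2 differences were above 0, as were 52.0% of those of all tested genes, and their median was 0.97. Tex19.1 read 11.5 and 4.17 FPKM in wild-type samples against 48.4 and 26.3 FPKM in Pcgf5-/- samples (log2 difference 2.19, SE 0.40, limma adjusted p = 0.0117). Dazl, an RNA-binding protein gene of germ cells, read 1.25 and 0.528 FPKM against 5.41 and 4.47 FPKM (1.68, SE 0.29, limma adjusted p = 0.0104). Hormad1, a meiotic chromosome axis gene, was higher by 2.21 (SE 0.51, limma adjusted p = 0.0248). The 3 calls were lost without Pcgf5-/- replicate 1 of day 6, with limma adjusted p of 0.0770, 0.0694 and 0.146. Those of Dazl and Hormad1 were also lost without wild-type replicate 2 of day 6 (0.0635 and 0.129), and that of Hormad1 without Pcgf5-/- replicate 2 of day 6 (0.0526) and with no minimum FPKM (0.0747). At day 0 none of the 10 passed and the median was 0.25, but some were apart there too. Tex19.1 read 28.2 and 31.5 FPKM in wild-type samples against 76.5 and 80.0 FPKM in Pcgf5-/- samples at day 0 (1.36, SE 0.40, limma adjusted p = 0.131), and Dazl 7.79 and 14.2 FPKM against 21.0 and 21.1 FPKM (0.93, SE 0.29, limma adjusted p = 0.147). In wild-type cells 4 of the 10 fell over the days (Dazl, Stk31, Hormad1 and Tex19.1), against 16.2% of all tested genes. The Hormad1 call was lost without replicate 2 of day 0 (log2 difference -1.56) or of day 6 (-1.44). In Pcgf5-/- cells 1 fell, Dazl, against 10.4% of all tested genes. At day 6 naive pluripotency transcripts were also higher in Pcgf5-/- cells. Over the days in these cells all 10 naive genes fell, with a median of -2.05. The germline genes had a median of 0.38 there, and 7 of 10 differences were above 0, as were 59.9% over all tested genes. Slc25a31, kept by the filter only through Pcgf5-/- cells of day 6, was among those above 0. The part of naive pluripotency in the germline values was not tested.

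Among 8 tested readers of methylated CpG, 1 was higher and 2 were lower in Pcgf5-/- than in wild-type cells at day 6. Their median was -0.35, beside 0.02 over all tested genes, of which 9.57% were higher and 7.05% lower. Zfp57, which holds methylation at imprinted regions, read 37.8 and 40.2 FPKM in wild-type samples against 75.7 and 76.8 FPKM in Pcgf5-/- samples (0.95, SE 0.22, limma adjusted p = 0.0254). Uhrf2, the paralogue of Uhrf1, read 23.4 and 24.8 FPKM against 13.4 and 16.2 FPKM (-0.67, SE 0.17, limma adjusted p = 0.0357), and Zbtb33, which encodes the reader Kaiso, was lower (-0.78, SE 0.21, limma adjusted p = 0.0394). These are differences from wild-type cells, where Zfp57 fell over the days (-1.49) and Uhrf2 and Zbtb33 rose (1.14 and 1.21), and none of the 3 passed over the days in Pcgf5-/- cells. The Zbtb33 call was lost on leaving out any single sample (limma adjusted p up to 0.199), and those of Zfp57 and Uhrf2 on leaving out any of the 4 samples of day 6 (up to 0.109 and 0.172) or with no minimum FPKM (0.0668 and 0.0586).

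**Figure D5:**
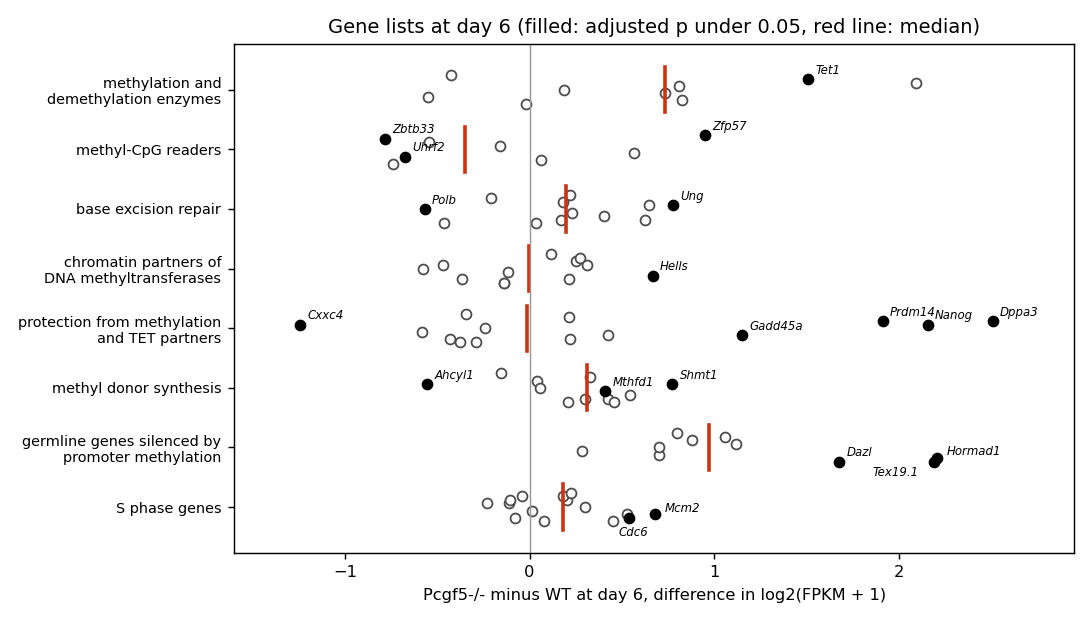
Difference in log2(FPKM + 1) of Pcgf5-/- from wild-type cells on day 6 (horizontal axis) for the tested genes of each list (vertical axis, height within a list has no meaning). Filled, named points passed an adjusted p under 0.05 and red lines are medians, 0.73 for the 9 enzymes and 0.97 for the germline genes.

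Of 12 base excision repair genes, other glycosylases among them, 1 was higher and 1 lower in Pcgf5-/- than in wild-type cells at day 6. Their median was 0.20, beside 0.02 over all tested genes, of which 9.57% were higher and 7.05% lower. Ung, the uracil glycosylase, read 35.3 and 36.5 FPKM in wild-type samples against 64.9 and 59.8 FPKM in Pcgf5-/- samples (0.78, SE 0.15, limma adjusted p = 0.0139), and Polb, the repair polymerase, 37.8 and 40.0 FPKM against 23.4 and 28.8 FPKM (-0.57, SE 0.14, limma adjusted p = 0.0318). Mbd4, which like TDG removes thymine from mismatches, read 6.75 and 7.30 FPKM against 10.3 and 12.6 FPKM and did not pass (0.63, limma adjusted p = 0.0595). It also lies on chromosome 6. Over the days Ung had fallen in wild-type cells (log2 difference -0.91, SE 0.15, limma adjusted p = 0.00147). Both genotype calls were lost without Pcgf5-/- replicate 1 of day 6 (limma adjusted p = 0.0800 for Ung and 0.156 for Polb), without wild-type replicate 1 (0.0568 and 0.0886) or without wild-type replicate 2 of day 6 (0.0666 and 0.153).

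Among 12 chromatin partners of the methyltransferases at day 6 the median was -0.00, beside 0.02 over all tested genes, and 1 passed, against 16.6%. This was Hells, the remodeller that opens heterochromatin to DNA methylation, with 69.8 and 58.4 FPKM in wild-type samples against 116 and 89.6 FPKM in Pcgf5-/- samples (0.67, SE 0.15, limma adjusted p = 0.0236). The call was lost without wild-type replicate 2 (0.54, limma adjusted p = 0.141) or Pcgf5-/- replicate 1 of day 6 (0.48, 0.117), with no minimum FPKM (0.0507) and with quantile normalization (0.0523). Over the days in wild-type cells 4 of the 12 rose, led by Suv39h1, a histone H3 methyltransferase, at 2.05 (SE 0.20, limma adjusted p = 0.000103), and 5 fell, among them Hells (-0.96) and Trim28 (-0.54). For Pcgf5-/- cells the counts were 4 and 0. Over all tested genes 34.2% rose and 16.2% fell in wild-type cells, and 21.9% rose and 10.4% fell in Pcgf5-/- cells.

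Of 12 tested genes of methyl donor synthesis, 2 were higher and 1 was lower in Pcgf5-/- cells than in wild-type cells at day 6. Their median was 0.31, beside 0.02 over all tested genes, of which 9.57% were higher and 7.05% lower. Shmt1, a folate cycle enzyme, read 27.9 and 20.7 FPKM in wild-type samples against 40.4 and 43.2 FPKM in Pcgf5-/- samples (0.77, SE 0.15, limma adjusted p = 0.0149). The others were Mthfd1 (0.41, limma adjusted p = 0.0343) and Ahcyl1 (-0.55, limma adjusted p = 0.0354). These calls were lost on leaving out any sample of day 6 or either Pcgf5-/- sample of day 0 (limma adjusted p up to 0.142 and 0.154), and that of Shmt1 without wild-type replicate 2 (0.0788) or either Pcgf5-/- sample of day 6 (0.0677 and 0.0659). Mat2a, which makes S-adenosylmethionine and lies on chromosome 6, did not pass on either day. Since Uhrf1 and Dnmt1 are known to rise in S phase, 15 genes of DNA replication and the cell cycle were set beside them. At day 6, 2 were higher in Pcgf5-/- than in wild-type cells and none was lower, against 9.57% and 7.05% of all tested genes. Mcm2 was higher by 0.68 (SE 0.12, limma adjusted p = 0.0116) and Cdc6 by 0.54 (SE 0.13, limma adjusted p = 0.0275). The median was 0.18, beside 0.02 over all tested genes. The Mcm2 call was lost without wild-type replicate 2 (limma adjusted p = 0.0741) or Pcgf5-/- replicate 1 of day 6 (0.0628), and that of Cdc6 on leaving out any sample of day 6 (up to 0.128). Over the days 7 of the 15 fell in wild-type cells and none rose, against 16.2% and 34.2% of all tested genes. The median was -0.42, beside 0.22 over all tested genes. There Uhrf1 fell by 0.83 on the log2 scale and Dnmt1 differed by 0.40, not past the threshold. For Pcgf5-/- cells 1 fell, Mcm4, and 2 rose, Mki67 and Top2a, against 10.4% and 21.9% of all tested genes. The median there was -0.15 beside 0.13. There Uhrf1 fell by 0.54 and Dnmt1 differed by 0.57, not past the threshold.

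At day 0 no gene of the 7 lists passed between the genotypes, against 0.333% of all tested genes. Their medians ran from -0.20 for the chromatin partners to 0.25 for the germline genes, beside 0.11 over all tested genes.

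Genes with the profile nearest to each enzyme over the 8 samples were found by the root mean square distance between log2(FPKM + 1) values centred on their own means. Nearest to Tet1 was Nid2 at 0.147, then Zfp459 at 0.206 and Etv5 at 0.214, where the standard deviation of Tet1 over the 8 samples was 0.957. For Tet3 they were Lrp8, Hs3st3b1 and Chd7 at 0.143 to 0.148, against a standard deviation of 1.23. Dnmt3l had Aim2 nearest at 0.265, followed by Platr10 and Trh at up to 0.464, against a standard deviation of 1.34. Dnmt3b lay farther from its nearest gene, Elmo1, at 0.299 with a standard deviation of 0.969, and Dnmt3a from Slc35d3 at 0.228 with a standard deviation of 0.818. Tet2 had Tfeb at 0.158 and Uhrf1 had Cnot11 at 0.0547.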

How the data were processed

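RNA-seq of polyA-selected RNA was analysed from 8 samples, 2 in each of 4 conditions grouped by their labels. The authors trimmed and deduplicated the reads and aligned them to mm9 (submitters' processing notes: TopHat2 2.0.4, Cufflinks 2.1.1). The deposited FPKM values are scaled by the authors for library size and transcript length. Removal of identical reads lowers values of abundant transcripts. The annotation used is not given in the sources used here. Depth is unknown from FPKM, which limits precision for low genes such as Tet3 at day 0.

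From these values log2(FPKM + 1) was computed for 13214 genes with a mean over 1 FPKM in at least 1 condition and fitted with limma 3.58.1 in R 4.3.3 (condition means, trended variance, 8 samples, no replicate block), with Benjamini-Hochberg adjustment over all tested genes. The fit was tested on simulated data. Tables were handled with Python 3.11.15 and pandas 2.3.3, and the Tdg copy was aligned with Biopython 1.88 (local alignment, NCBIM37 genome and GENCODE M1). p-values rest on 2 samples per condition, with the spread of each gene pooled over the 4 conditions and moderated over all tested genes. They set a difference between conditions against that spread.

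The members and gene lists were chosen with earlier results of these data known. Named were the 9 members, Pcgf5, marker genes, up to 3 largest rises and falls past the threshold per list and a few set pathway genes, and the 3 nearest profiles of each member. Not every gene that meets this rule is printed, and the choice among them was made with their values known. Some genes that meet it are not reported here. Same-numbered replicates were checked for pairing: replicate differences of both genotypes correlated at 0.39 for day 6 and 0.10 for day 0, and at -0.08 to -0.02 across days. With 2 samples each they were treated as sharing only a number. Alternatives were pseudocounts of 0.1 and 0.01, no minimum and a minimum of 5 FPKM, quantile normalization, median centring, replicate blocks, no trend, only the compared groups and leaving out each sample.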

Additional observations from a re-analysis of the deposited data

Results flagged for a closer look

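Of the genes of the 7 pathway lists, 2 had a genotype effect that differed between day 0 and day 6 in the interaction test of the limma fit. None of the 9 enzymes did, and 3.09% of all tested genes did. For Nanog the genotype effect was higher at day 6 by 1.88 on the log2(FPKM + 1) scale (SE 0.36, limma adjusted p = 0.0396). For Cxxc4 it was lower by 1.27, an interaction value of -1.27 (SE 0.24, limma adjusted p = 0.0363), and Cxxc4 was at or under 0.0574 FPKM in all day 0 samples. Each lost the call in 7 of 8 leave-outs, all but that of wild-type replicate 1 of day 6, with limma adjusted p up to 0.143 for Nanog and 0.129 for Cxxc4. The Cxxc4 call was also lost with a pseudocount of 0.1 (0.113) or 0.01 (0.247), and that of Nanog with a pseudocount of 0.01 (0.0503) or no minimum FPKM (0.103). No group holds 4 or more samples, so no single sample could be tested as standing apart.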

How the results depend on the processing

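With 2 samples per condition and no depth in the files, small differences of low genes could not be settled. Uhrf1 and Tet3 over the days in both genotypes, Tet1 and Tet2 over the days in wild-type cells and Dnmt3b in Pcgf5-/- cells kept their direction and stayed past the threshold under every alternative. Genes called at day 0 numbered 44 and became 6 with no minimum FPKM, 102 with a minimum of 5, 3 with quantile normalization, 2 with median centring, 2 with no trend and 1 in a fit of the compared groups only. Calls for a change of the genotype effect numbered 408 and became 251 and 191 with pseudocounts of 0.1 and 0.01 and 86 with no minimum. Enzymes called at day 6 went from 1 to 0 with no minimum and in the compared groups only, those called over the days in Pcgf5-/- cells from 5 to 3 with no minimum, and those with a changed genotype effect from 0 to 1 (Tdg, limma adjusted p = 0.0454) with no trend. The cause was not tested. With a replicate block, 1 gene was called at day 0 and 2 enzymes at day 6 (Tet1 and Dnmt3l, 0.0219 for the latter), and Dnmt1 passed in Pcgf5-/- cells over the days (0.0416). With a replicate block within each day, 282 genes and 1 enzyme (Dnmt3b, 0.0443) were called at day 0, 5 enzymes at day 6 (Tet1, Dnmt3a at 0.00993, Dnmt3b at 0.00860, Dnmt3l at 0.0120 and Tet2 at 0.0250), and 1167 genes and 4 enzymes (Dnmt3a, Dnmt3b, Tet1 and Tdg, 0.0180 to 0.0493) for the changed genotype effect. Over the days Dnmt1, Dnmt3a and Dnmt3b then passed in wild-type cells (0.0330, 0.00241 and 0.00673) and Dnmt1 in Pcgf5-/- cells (0.0158). The shares of all tested genes called at day 6 and over the days with these blocks are not given here. Whether more enzymes passed there than genes at large can thus not be read from these counts. The direction turned for Dnmt3a at day 0 with quantile normalization (-0.081) and median centring (-0.089), for Dnmt1 at day 6 with median centring (0.017) and for Tdg over the days in Pcgf5-/- cells when summed with Gm9855 (0.14), and none of these passed. Leaving out 1 sample gave 1 to 22 genes at day 0, 334 to 2089 at day 6, 4726 to 6557 over the days in wild-type cells, 2429 to 4169 in Pcgf5-/- cells and 4 to 363 for the changed genotype effect. The lowest count at day 6 was without Pcgf5-/- replicate 1 of that day, where a condition with 1 sample is assumed to vary like the others. Enzymes called then numbered 0 at day 0, 0 to 2 at day 6, 5 to 6 and 3 to 6 over the days in wild-type and Pcgf5-/- cells, and 0 for the changed effect. Differences that turned in these leave-outs were those at day 0 of Dnmt1 (-0.46 to 0.091), Dnmt3a (-0.34 to 0.45), Dnmt3l (-0.16 to 0.97) and Tet2 (-0.34 to 0.076), of Dnmt1 at day 6 (-0.10 to 0.066) and in its changed effect (-0.11 to 0.45), and over the days in Pcgf5-/- cells of Dnmt3l (-1.20 to 0.016) and Tet1 (-0.80 to 0.23), none of them called. For the listed pathway genes, 131 of 696 leave-out values and 42 of 862 other values lost the call and 0 turned.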
